A study of Homo sapiens with 8 samples.

Results

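Coagulation and complement factors are the blood-borne proteases, cofactors and inhibitors that liver cells make and secrete. The genes described here are 37 of the 20046 genes that carry a named probe on the array, chosen by symbol from the platform annotation. They comprise 13 clotting factors and contact system genes, 7 inhibitors and fibrinolysis genes, and 17 complement genes. A probe that passed the filter on detection stood for 36 of the 37. The exception was C9, the last component of the membrane attack complex, which was not detected on any array.

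Human liver cells were cultured for 5 days as a monolayer (2D), in a static scaffold (3D, called static 3D here) or in the same scaffold under perfusion (3DBR, called perfused 3D). The scaffold, MatriGrid, is a microporous polycarbonate support, placed in a well plate for static 3D and in a bioreactor with a peristaltic pump for perfused 3D. Monolayers received 0.25 cells for each cell seeded on a scaffold, so culture format cannot be told apart from seeding number. There were 3 arrays of 2D, 3 of static 3D and 2 of perfused 3D, without other treatment in the labels. The replicate numbers used here only follow the order of the samples in the series. Equal numbers do not link arrays of different groups. The labels do not settle what the cells were. The design text speaks of hepatocytes from 3 donors, whereas the characteristics of each sample name the hepatocarcinoma line HepG2, and no sample is assigned to a donor. The design text also speaks of 3 perfused cultures, whereas 2 perfused arrays were analysed. No label states that arrays of a group came from separate cultures, so the p-values below measure only the spread between these arrays.

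In hepatocytes these genes serve a pair of linked defence systems. Clotting runs through a cascade of proteases that ends with thrombin cutting fibrinogen into fibrin, held in check by antithrombin, protein C and other inhibitors, and fibrin is later dissolved by plasmin. Complement runs through the classical, lectin and alternative pathways, which meet at C3 and end in a pore formed by the late components. Most of these genes are expressed mainly in hepatocytes, although C1R, C1S, C2, C3 and CFB are made by macrophages and fibroblasts too. Several belong to the acute-phase programme, and their levels serve as readouts of the differentiated state of cultured liver cells.

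Levels are log2 normalised intensities, and differences between groups are log2 fold changes with the standard error (SE) from limma. Levels of different genes come from different probes and are not compared. The median intensity before normalisation ran from 279 to 386 units and the share of probes detected from 29.7% to 34.3%, and precision is limited by how few arrays each group has. Between 30 and 35 of the 37 members were detected per array. Of 12 hepatocyte markers, 11 or 12 were detected on each array. 

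Arrays of 1 group differed among themselves, and 2 of them stood apart before any comparison. On 2D replicate 1 and static 3D replicate 1, 4 and 3 of 12 macrophage markers were detected, with mean levels of 7.01 and 7.16, against 10 to 12 detected and means of 9.12 to 10.51 on the other arrays. The stellate cell and fibroblast list followed the same split, with means of 6.72 and 6.87 against 8.56 to 9.51. Dividing cell markers went the other way, with means of 9.85 and 9.29 against 6.82 to 7.46. Of the 8 hepatoma and fetal liver genes, 4 were detected on each of these arrays and 2 or 3 on the others. The mean of the 4 that were tested was 9.38 and 8.65 there, against 8.07 to 8.69 on the others. Of these genes IGF2BP3, an oncofetal RNA-binding protein, lay at 8.42 and 7.47 there and from 5.52 to 6.49 elsewhere. AFP, PEG10 and SPINK1 did not set both arrays apart. Each was higher on an array outside this pair than on static 3D replicate 1. The hepatocyte list had its lowest mean, 11.06, on 2D replicate 1, against 12.25 to 13.76 on the others. On static 3D replicate 1 it was 13.07. Static 3D replicate 3 differed in endothelial markers, with 4 of 9 detected against 0 to 2 elsewhere. The mean of the 2 that were tested, PECAM1 and VWF, was 10.01 on it and 5.95 to 8.31 on the other arrays. In bulk RNA, fewer cells of a type and less RNA per cell cannot be told apart. The part that cell makeup played in the results below was not tested. Where leaving out 2D replicate 1 turned a member's difference from 2D or moved it by over 1.5 times, the value without that array is given beside it, or the value without both arrays that stood apart. F13B, which is near background, has no such value.

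The members were higher in scaffold culture than in the monolayer, with and without flow, but no single member passed the test across all genes. In static 3D, 35 of 36 members lay above 2D, with a median difference of 1.09. In perfused 3D, 33 of 36 did, with a median of 1.06. Both counts include F13B, which was not detected on any 2D array and whose sign carries no order. Across all 11031 genes tested, 50.1% and 50.8% were higher and the medians were 0.00 and 0.01. The shift was not particular to the members. Of the 12 hepatocyte markers, 11 were higher in each comparison, with medians of 0.99 in static 3D and 1.14 in perfused 3D. A difference above 1 was found for 20 members in static 3D and 19 in perfused 3D, against 1.99% and 3.24% of all genes, and for no member was it below -1. In limma's fit, 0 members had an adjusted p under 0.05 in either comparison. The smallest was 0.940 in static 3D, and 0.841 in perfused 3D, for SERPINC1. Over all genes the called share was 0% and 0.00907%. At an unadjusted p under 0.05 there were 13 members in static 3D and 7 in perfused 3D, all higher, where 2.64% and 2.51% of all genes were higher by that measure and 2.06% and 1.71% were lower. Without overlap between arrays, 11 members lay higher in static 3D and 10 in perfused 3D, against 4.96% and 10.8% of all genes. No member lay lower without overlap, where 5.18% and 10.1% of all genes did. The 2 comparisons share the 2D arrays.

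**Figure D1:**
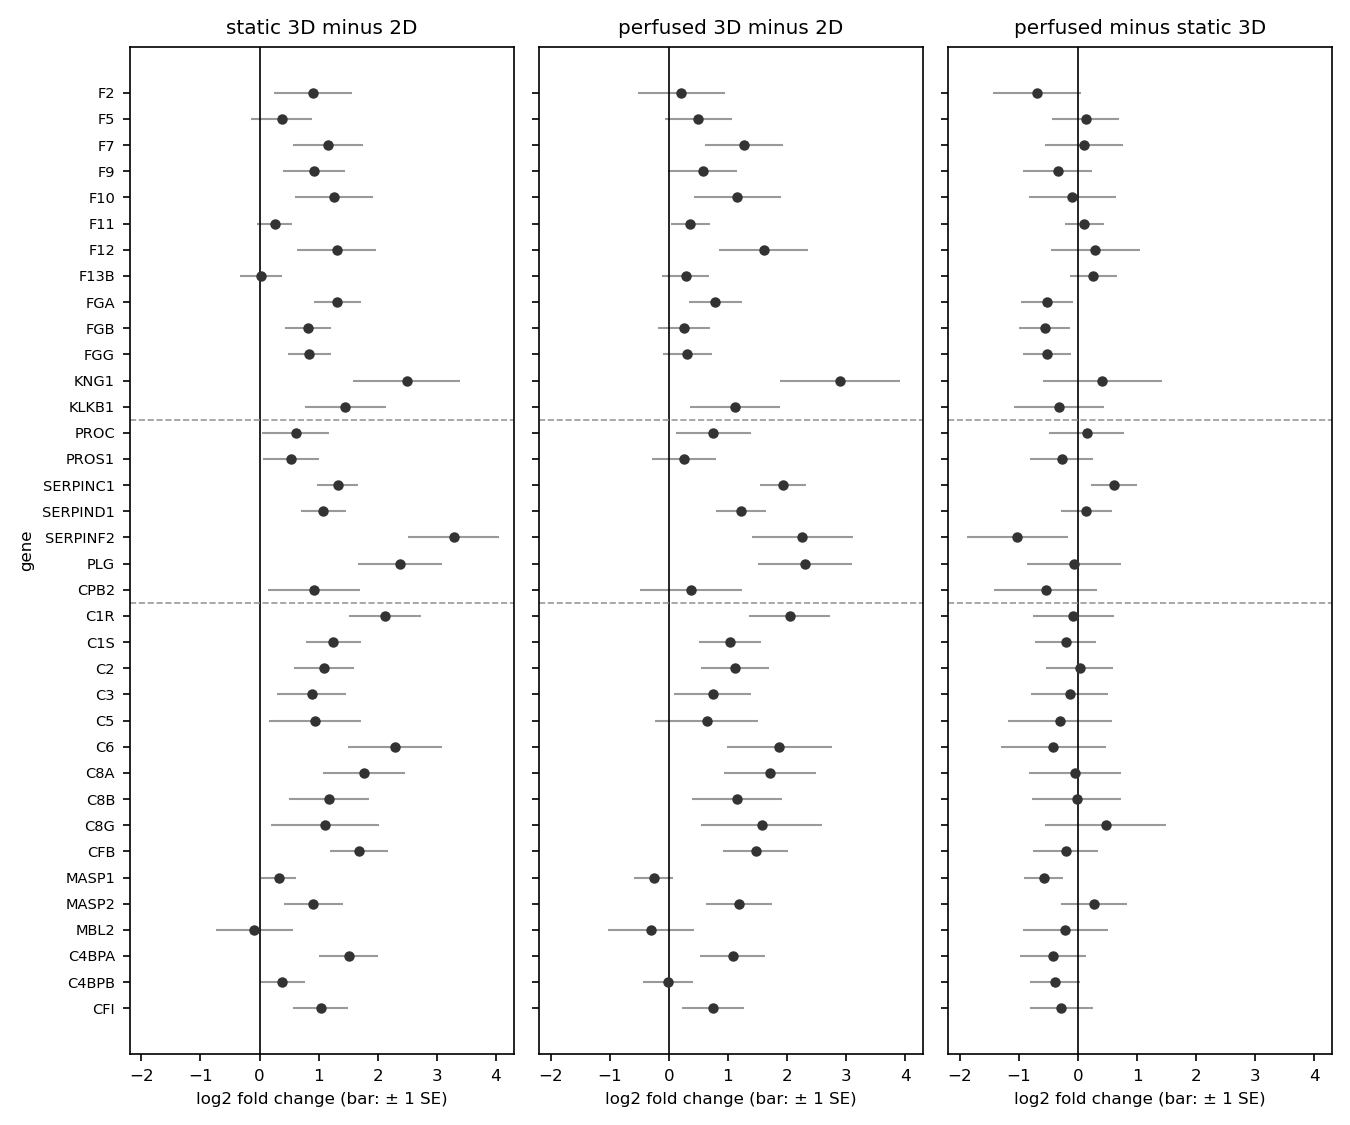
Log2 fold change of the 36 measured members (points, bars ± 1 SE from limma) in the 3 comparisons, with dashed lines between clotting, inhibitor and complement genes. Most points lie right of 0 in the first and second panel, with medians of 1.09 and 1.06, and around 0 in the third, with a median of -0.17.

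How large the difference was depended on a single monolayer array. 2D replicate 1 held the lowest of the 8 levels for 32 of 36 members, and for 23% of all genes. The median level over members was 8.31 on it, 10.70 and 10.18 on the other 2D arrays, 11.12, 11.04 and 11.43 in static 3D, and 11.40 and 10.82 in perfused 3D. Without 2D replicate 1, the median difference was 0.47 in static 3D, with 31 of 36 members higher, and 0.31 in perfused 3D, with 27 higher. Without static 3D replicate 1 as well, static 3D had a median of 0.52, with 33 higher and 9 above 1. Perfused 3D then had 7 above 1. The scaffold arrays and the other 2D arrays were thus nearer to each other than the group means show.

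**Figure D2:**
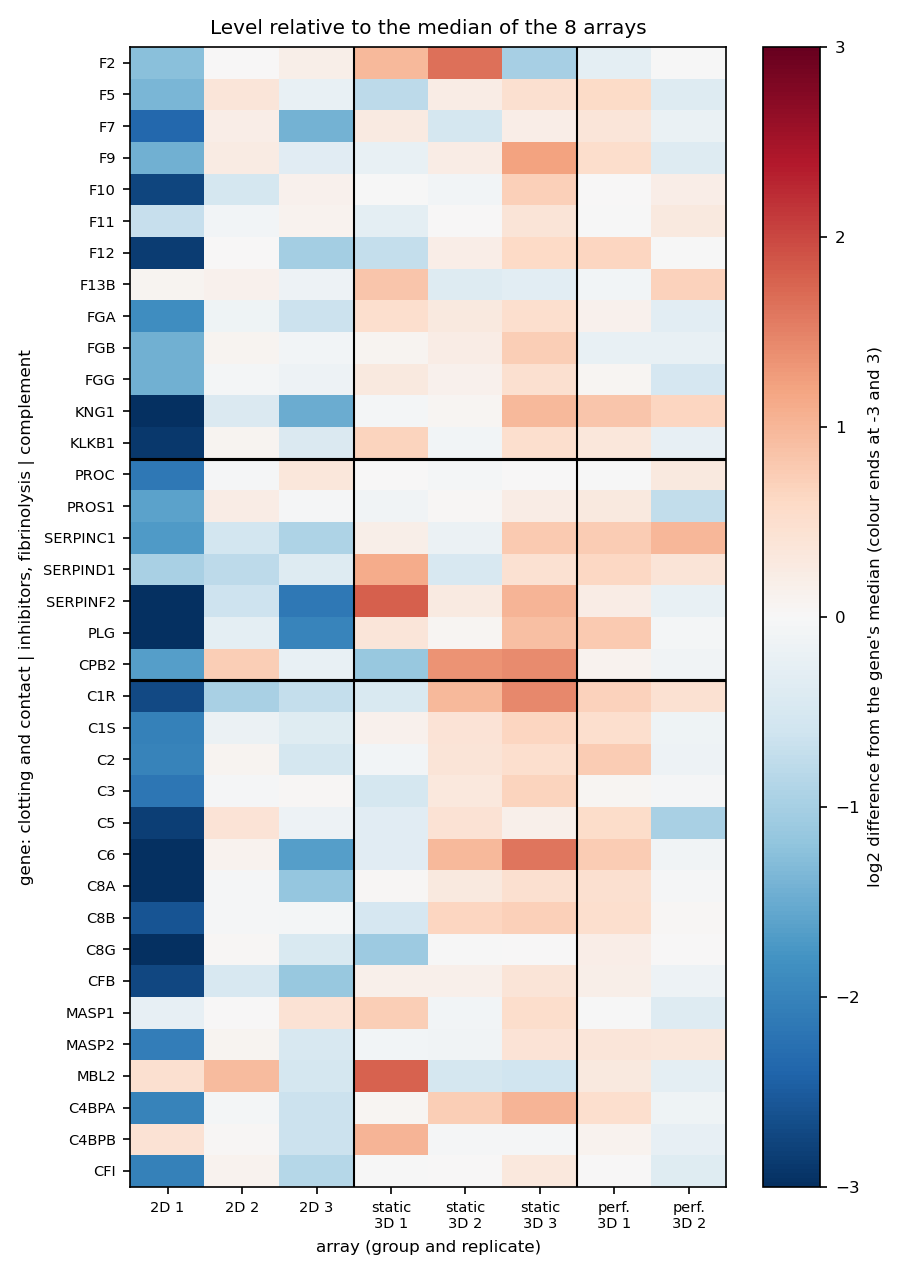
Level of each measured member (rows, in 3 blocks: clotting, inhibitors, complement) on each of the 8 arrays (columns), as the log2 difference from the gene's own median over the arrays. The 2D replicate 1 column is the lowest in 32 of 36 rows, and F13B, MASP1, MBL2 and C4BPB are the rows where it is not.

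A stricter description is the set of genes whose 5 scaffold arrays all lay above all 3 arrays of 2D. It held 7 of the 36 members, KNG1, SERPINC1, SERPINF2, PLG, C1R, C1S and CFB, against 2.58% of all genes. They come from the contact pathway, clotting inhibition, fibrinolysis and the classical and alternative arms of complement. Their values follow with their classes.

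**Figure D3:**
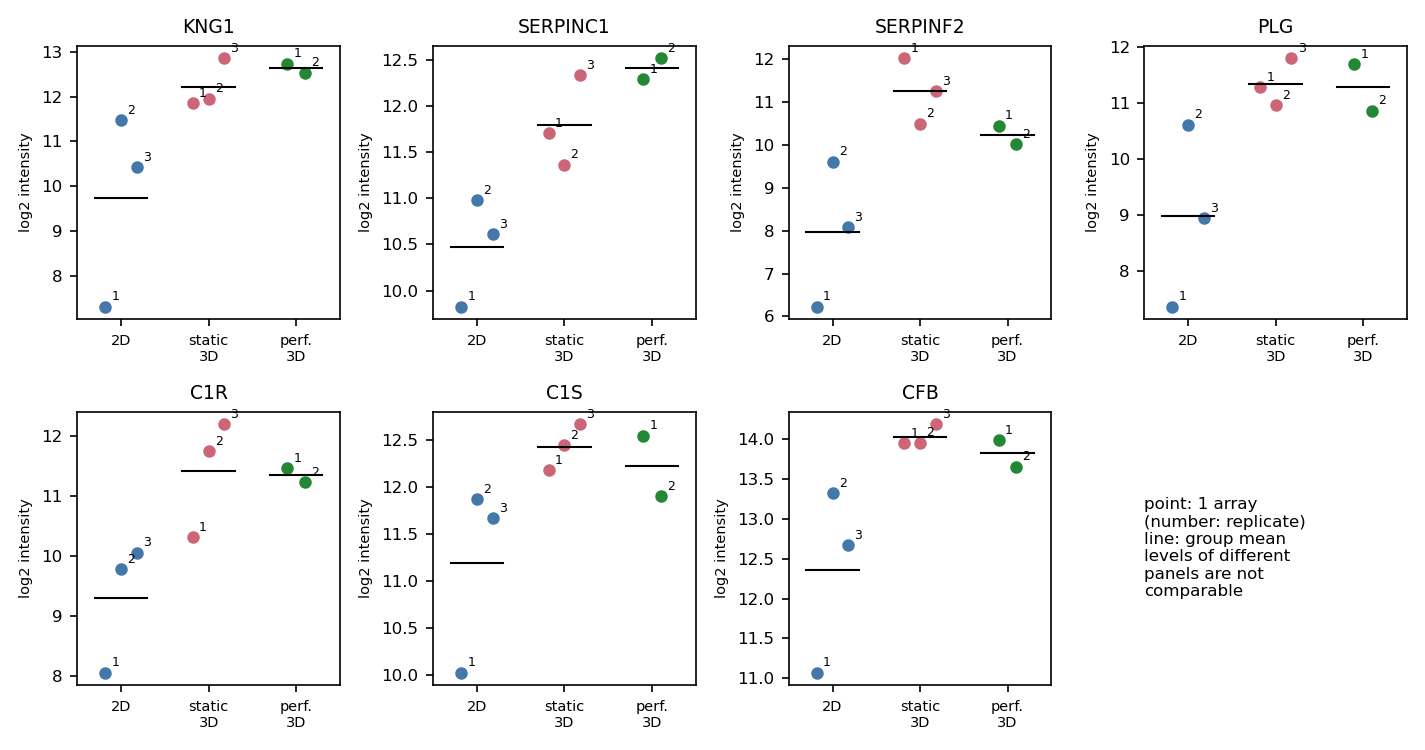
Level of the 7 members whose scaffold arrays all lay above the 2D arrays, as log2 intensity (points, numbered by replicate, with lines at group means). In each panel 2D replicate 1 is the lowest point, and the 2D replicate nearest to the scaffold arrays is replicate 2, or replicate 3 for C1R.

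The contact system begins with factor XII, prekallikrein and kininogen, which assemble on a surface and release bradykinin. KNG1, the kininogen gene, was read by a single probe, and which form of kininogen it stands for was not tested. KNG1 lay at 7.31, 11.47 and 10.42 in 2D, at 11.85, 11.95 and 12.86 in static 3D, and at 12.73 and 12.53 in perfused 3D. All scaffold arrays were above all 2D arrays, and the 2D arrays spanned the widest range. KNG1 was higher by 2.49 (SE 0.91) in static 3D, which is 5.61-fold, and by 2.90 (SE 1.01) in perfused 3D, which is 7.47-fold. With 2D replicate 1 and static 3D replicate 1 left out, the differences were 1.46 (SE 0.41) and 1.69 (SE 0.41).

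F12, factor XII, lay at 9.37, 12.22 and 11.19 in 2D, at 11.49, 12.40 and 12.81 in static 3D, and at 12.87 and 12.20 in perfused 3D. The second 2D array lay inside the scaffold range. The differences were 1.31 (SE 0.67) and 1.60 (SE 0.75), and 0.53 and 0.82 with 2D replicate 1 left out. KLKB1, prekallikrein, lay at 7.41, 10.37 and 9.86 in 2D, at 10.96, 10.22 and 10.81 in static 3D, and at 10.63 and 10.05 in perfused 3D. Its groups overlapped, with differences of 1.45 (SE 0.68) and 1.13 (SE 0.76) that were 0.55 and 0.22 with that array left out. F11, the factor XI gene, neighbours KLKB1 on chromosome 4. Its levels were closer together and ran from 7.39 to 8.45, with differences of 0.26 (SE 0.30) and 0.37 (SE 0.33). On leaving out 2D replicate 1 these were 0.03 and 0.14. A second F11 probe, detected on all 8 arrays, gave 0.36 and -0.09 with every array kept.

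Apart from fibrinogen, the factors of the extrinsic, intrinsic and common pathways had overlapping groups in every comparison. F7, the factor that tissue factor activates, was not detected on 2D replicates 1 and 3. It lay at 5.64, 8.21 and 6.59 in 2D, at 8.26, 7.47 and 8.19 in static 3D, and at 8.37 and 7.80 in perfused 3D. The lone detected 2D array lay at the height of the scaffold arrays. F7 was higher by 1.16 (SE 0.59) and 1.27 (SE 0.66), while its second probe gave 0.09 and 0.15. Leaving out 2D replicate 1, the first probe gave 0.58 and 0.68. F10, the protease that makes thrombin, lay at 7.11, 9.35 and 10.02 in 2D, at 9.87, 9.79 and 10.59 in static 3D, and at 9.89 and 10.09 in perfused 3D. Its first 2D array lay apart from all others. F10 was higher by 1.26 (SE 0.66) and 1.16 (SE 0.74), and by 0.40 and 0.30 once that array was left out.

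Prothrombin, F2, had another order of arrays than most members. It lay at 6.64, 7.90 and 8.08 in 2D, at 8.87, 9.56 and 6.91 in static 3D, and at 7.61 and 7.89 in perfused 3D. It was not detected on 2D replicate 1. Static 3D replicate 3, the array on which 17 of the 36 members had their highest level, held the second-lowest level of F2. The differences from 2D were 0.91 (SE 0.66) and 0.21 (SE 0.74), and 0.46 and -0.24 when 2D replicate 1 was dropped. F9, the protease lacking in haemophilia B, was higher by 0.92 (SE 0.52) in static 3D and 0.57 (SE 0.59) in perfused 3D, which became 0.45 and 0.11 on dropping it. F5, the cofactor of factor X, differed by 0.37 (SE 0.51) and 0.50 (SE 0.57), and by -0.11 and 0.02 on dropping it. F13B, the carrier subunit of the fibrin cross-linking factor, was detected on static 3D replicate 1 and perfused replicate 2 alone, at 7.19 and 7.03. It lay between 5.96 and 6.48 elsewhere, where its levels are not above background, so no fold is given.

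Fibrinogen, the substrate of the cascade, is a hexamer of paired alpha, beta and gamma chains. The genes lie next to each other on chromosome 4 in the order FGB, FGA, FGG. FGA lay at 12.57, 14.32 and 13.79 in 2D, at 14.95, 14.73 and 14.94 in static 3D, and at 14.56 and 14.13 in perfused 3D. FGB lay at 12.88, 14.39 and 14.25 in 2D, at 14.39, 14.54 and 15.06 in static 3D, and at 14.10 and 14.09 in perfused 3D. FGG lay at 12.06, 13.44 and 13.34 in 2D, at 13.78, 13.61 and 13.98 in static 3D, and at 13.55 and 12.98 in perfused 3D. Each chain was highest in static 3D. For FGA and FGG all static arrays were above all 2D arrays, whereas for FGB the first static array and the second 2D array were level.

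Static 3D exceeded 2D by 1.31 (SE 0.40) for FGA, 0.83 (SE 0.39) for FGB and 0.84 (SE 0.37) for FGG. Perfused 3D exceeded 2D by 0.79 (SE 0.44), 0.26 (SE 0.43) and 0.32 (SE 0.41). When 2D replicate 1 was left out, the static values became 0.82, 0.35 and 0.40 and the perfused values 0.29, -0.22 and -0.13. By these probes the perfused direction for FGB and FGG thus rested on that array. For FGB it also depended on the probe. A second FGB probe gave -0.31 for perfused 3D minus 2D with all 8 arrays, while 7 of the 8 fibrinogen probes detected on every array were higher. Between the scaffolds the 3 chains differed by like amounts. Perfused 3D lay below static 3D by -0.52 (SE 0.44), -0.57 (SE 0.43) and -0.53 (SE 0.41), with both perfused arrays under all 3 static arrays for each chain. None had an adjusted p under 0.05 in limma's fit (1.00 each). Fibrinogen has 10 probes, which read the same arrays and are not independent of each other. All 8 of those detected on every array had lower means in perfused than in static 3D, from -0.51 to -1.32, and in 6 of the 8 the arrays did not overlap. The other 2 probes were detected on no array. Over all genes, 8.31% lay lower in perfused than in static 3D without overlap.

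The windows around the 3 fibrinogen start sites are shown because the chains had similar values across the arrays, so that a reader can set their promoters side by side. The sequences are RefSeq windows on GRCh38.p14, from 250 bases before to 50 bases after the start. FGA is at chr4:154590693-154590992 on the minus strand, FGB at chr4:154562730-154563029 on the plus strand and FGG at chr4:154612607-154612906 on the minus strand. Capitals mark matches, on either strand, to GTTAAT, the half-site of HNF1, and to TTGCNCA, the core of C/EBP. Both factors are known regulators of hepatocyte genes.
FGA: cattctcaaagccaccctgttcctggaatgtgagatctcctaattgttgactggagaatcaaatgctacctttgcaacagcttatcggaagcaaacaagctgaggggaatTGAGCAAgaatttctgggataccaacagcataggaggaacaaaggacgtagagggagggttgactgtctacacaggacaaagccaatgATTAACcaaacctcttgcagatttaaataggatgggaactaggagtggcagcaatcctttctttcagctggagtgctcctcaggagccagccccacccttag
FGB: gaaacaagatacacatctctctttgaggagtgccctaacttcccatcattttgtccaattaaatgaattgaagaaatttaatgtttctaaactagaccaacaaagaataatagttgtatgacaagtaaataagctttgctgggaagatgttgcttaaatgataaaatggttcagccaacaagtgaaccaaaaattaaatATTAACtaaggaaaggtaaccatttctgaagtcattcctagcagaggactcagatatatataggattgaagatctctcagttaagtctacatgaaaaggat
FGG: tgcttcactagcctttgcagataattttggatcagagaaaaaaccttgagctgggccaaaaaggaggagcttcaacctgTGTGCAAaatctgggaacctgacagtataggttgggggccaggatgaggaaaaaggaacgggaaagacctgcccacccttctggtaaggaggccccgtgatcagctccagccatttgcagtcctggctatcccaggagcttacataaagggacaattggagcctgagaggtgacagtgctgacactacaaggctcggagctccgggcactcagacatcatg
FGA holds the HNF1 half-site at -52 and the C/EBP core at -140, FGB an HNF1 half-site at -51, and FGG a C/EBP core at -171, counted at the first base of the match from the start. A match is a run of letters and not a bound site.

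The same search covered the 32 members with a window in the RefSeq table, 42 windows in all. SERPINC1, SERPINF2, C1S, C3 and C8G had none and are named only. Both strands were searched, several windows of 1 gene counted once, and no matches within a member's window overlapped. The HNF1 half-site GTTAAT was in 12 of 32 members (37.5%) and in 8.27% of the 27305 genes with a window. TGTTTAC, a FOXA motif, was in 6 (18.8%) against 4.19%, and TTGCNCA in 7 (21.9%) against 14.3%. AAAGTCC, an HNF4 core, was in 3 (9.38%) against 4.56%. The general promoter motifs were rarer than over all genes: GGGCGG, the GC box, was in 3 members (9.38%) against 48.3%, and TATAAA in 2 (6.25%) against 14.0%. Among the 7 members with scaffold arrays above all 2D arrays, PLG and C1R held an HNF1 half-site, C1R also a C/EBP core, KNG1 a FOXA motif and CFB a TATA box.

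The inhibitors and fibrinolysis genes held the smallest p among the members in both comparisons with 2D, and the largest difference in static 3D. All 7 lay higher in both scaffold groups, with medians of 1.08 and 1.22. SERPINF2 encodes alpha-2-antiplasmin, the main inhibitor of plasmin. It lay at 6.23, 9.60 and 8.07 in 2D, at 12.02, 10.49 and 11.26 in static 3D, and at 10.44 and 10.01 in perfused 3D. It was not detected on 2D replicate 1. The 3 groups did not overlap, with 2D lowest, perfused 3D between and static 3D highest. SERPINF2 was higher by 3.29 (SE 0.77) in static 3D, which is 9.76-fold, and by 2.26 (SE 0.86) in perfused 3D, which is 4.79-fold. Without 2D replicate 1 and static 3D replicate 1 the values were 2.03 (SE 0.51) and 1.39 (SE 0.51). Perfused 3D was lower than static 3D by -1.03 (SE 0.86), the single member below -1 there.

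PLG encodes plasminogen, the precursor of plasmin. It lay at 7.37, 10.62 and 8.95 in 2D, at 11.28, 10.97 and 11.81 in static 3D, and at 11.70 and 10.87 in perfused 3D. All scaffold arrays were above 2D, and the second 2D array came nearest to them. The differences were 2.38 (SE 0.71) and 2.30 (SE 0.79), about the same with flow as without, and 1.61 and 1.499 without the arrays that stood apart. CPB2, which makes fibrin resistant to plasmin, was not detected on 2D replicate 1 and static 3D replicate 1, at 5.95 and 6.46. On the other arrays it ran from 7.37 to 9.02, and its differences were 0.92 (SE 0.78) and 0.38 (SE 0.87), or 0.29 and -0.26 with 2D replicate 1 removed.

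SERPINC1 encodes antithrombin, the heparin-dependent inhibitor of thrombin and factor Xa. It lay at 9.83, 10.98 and 10.61 in 2D, at 11.70, 11.36 and 12.33 in static 3D, and at 12.29 and 12.52 in perfused 3D. The scaffold arrays were all above 2D, and the spread within 2D was smaller than for most members (SD 0.59, n = 3). SERPINC1 was higher by 1.32 (SE 0.35) in static 3D and by 1.93 (SE 0.39) in perfused 3D, a 3.81-fold difference with an interval of 1.03 to 2.83 on the log2 scale. With each array left out in turn the perfused difference ran from 1.61 to 2.18. The difference between perfused and static 3D, 0.61 (SE 0.39), was the largest of any member in that direction, and its interval of -0.29 to 1.504 contains 0.

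SERPIND1, heparin cofactor II, lay at 10.05, 10.23 and 10.63 in 2D, at 12.13, 10.53 and 11.49 in static 3D, and at 11.64 and 11.42 in perfused 3D. The perfused arrays were above all 2D arrays, while static 3D replicate 2 was inside the 2D range. The differences were 1.08 (SE 0.39) and 1.22 (SE 0.43). The protein C system differed less. PROC, the zymogen of the protease that inactivates factors V and VIII, lay at 9.01, 11.13 and 11.51 in 2D, at 11.18, 11.12 and 11.19 in static 3D, and at 11.16 and 11.45 in perfused 3D. All but the first 2D array lay within 11.12 and 11.51. The differences of 0.61 (SE 0.57) in static 3D and 0.76 (SE 0.63) in perfused 3D became -0.16 (SE 0.21) and -0.012 (SE 0.23) once that array was removed. PROS1, its cofactor protein S, differed by 0.53 (SE 0.48) and 0.26 (SE 0.54), and by -0.04 and -0.31 on the same removal.

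**Figure D4:**
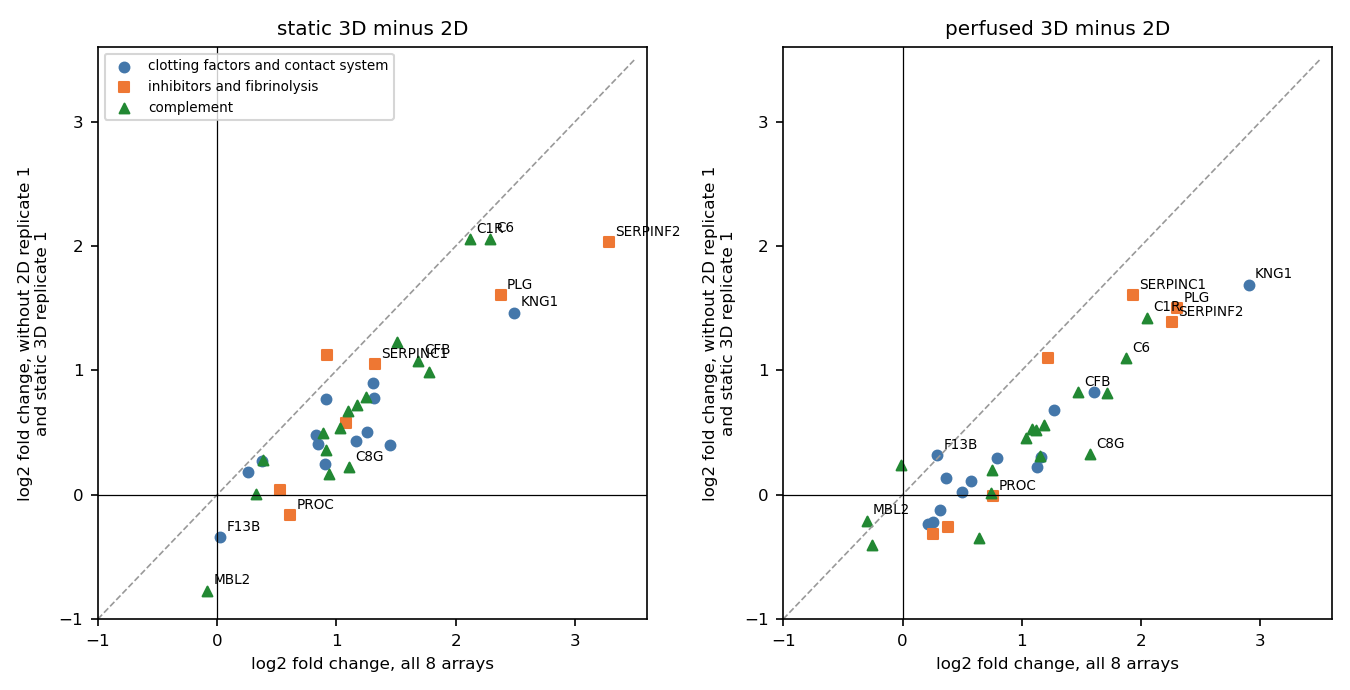
Log2 fold change of each member with all 8 arrays (x axis) against the value without 2D replicate 1 and static 3D replicate 1 (y axis), for both comparisons with 2D. Symbols mark the 3 classes and the dashed line marks equal values. Most members fall below the line, C1R stays near it in static 3D at 2.12 and 2.05, and PROC drops below 0.

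In complement, 15 of the 16 measured genes lay higher in static 3D and 13 in perfused 3D, with medians of 1.10 in both. The classical pathway starts with the proteases C1R and C1S, neighbours on chromosome 12, which are bound to the recognition protein C1q. C1R lay at 8.06, 9.79 and 10.06 in 2D, at 10.32, 11.75 and 12.21 in static 3D, and at 11.47 and 11.23 in perfused 3D. C1S lay at 10.02, 11.87 and 11.67 in 2D, at 12.18, 12.45 and 12.67 in static 3D, and at 12.55 and 11.90 in perfused 3D. For both genes all scaffold arrays were above 2D, for C1S narrowly so on perfused replicate 2.

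C1R was higher by 2.12 (SE 0.61) in static 3D, 4.35-fold, and by 2.05 (SE 0.68) in perfused 3D, 4.13-fold. Its second probe detected on all arrays gave 1.51 and 2.06. Without the arrays that stood apart the static value was 2.05 (SE 0.23), with an adjusted p of 0.313 in limma's fit, the smallest of any member under that setting. The perfused value was then 1.42 (SE 0.23), with an adjusted p of 0.427. C1S was higher by 1.24 (SE 0.47) and 1.04 (SE 0.52), and by 0.66 and 0.45 with 2D replicate 1 removed. C1QB, a subunit of C1q made by macrophages and not a member, lay at 5.46 and 5.44 on 2D replicate 1 and static 3D replicate 1 and from 10.92 to 12.78 elsewhere. For both C1R and C1S, 2D replicate 1 was the lowest array of 2D and static 3D replicate 1 the lowest of static 3D, although the latter lay above all 2D arrays. The part of other cell types in these levels was not tested.

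C2, the protease of the classical C3 convertase, was higher by 1.09 (SE 0.51) and 1.12 (SE 0.57), with levels from 8.56 to 11.32 and overlapping groups. It was higher by 0.50 and 0.52 when 2D replicate 1 was removed. CFB, factor B, is its counterpart in the alternative pathway. It lay at 11.07, 13.33 and 12.67 in 2D, at 13.96, 13.96 and 14.20 in static 3D, and at 13.99 and 13.66 in perfused 3D. The scaffold arrays lay within 13.66 and 14.20, all above 2D. CFB was higher by 1.68 (SE 0.49), which is 3.21-fold, and by 1.47 (SE 0.55). The same removal left 1.04 (SE 0.24) and 0.83 (SE 0.26). C3, on which the pathways meet, lay at 8.61, 10.76 and 10.82 in 2D, at 10.27, 11.11 and 11.46 in static 3D, and at 10.85 and 10.76 in perfused 3D. Its groups overlapped, and the differences of 0.88 (SE 0.58) and 0.74 (SE 0.65) shrank to 0.16 (SE 0.34) and 0.02 (SE 0.37) when 2D replicate 1 was removed.

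The lectin pathway genes gave differences on both sides of 0. MBL2, the mannose-binding lectin that recognises microbial sugars, lay at 7.25, 7.71 and 6.25 in 2D, at 8.54, 6.26 and 6.16 in static 3D, and at 7.06 and 6.49 in perfused 3D. It was detected on 4 of the 8 arrays, among them the 2 that stood apart, and its group means differed by -0.09 (SE 0.65) and -0.30 (SE 0.72), or by 0.0052 and -0.21 with 2D replicate 1 removed. Of the genes for its proteases, MASP1 ran from 6.75 to 7.87 with differences of 0.33 (SE 0.30) and -0.26 (SE 0.33), or 0.18 and -0.41 without its first 2D array. With the probe detected on all arrays its perfused value was 0.20. Both probes are annotated to the same transcript of MASP1. A probe annotated to another transcript, detected on 6 arrays, gave 0.40 in static 3D and 0.27 in perfused 3D. The sign of MASP1 in perfused 3D thus differed between probes. A probe annotated to a further transcript was detected on no array. The form of the protein that these values stand for is not known. MASP2 was higher by 0.91 (SE 0.50) and 1.18 (SE 0.56), and by 0.28 and 0.56 without 2D replicate 1. Its perfused arrays, at 10.13 and 10.10, lay above the 2D arrays, at 7.68, 9.83 and 9.28.

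The late components form the pore. C5, which is cut to start it, lay at 9.46, 12.71 and 12.13 in 2D, at 11.95, 12.72 and 12.46 in static 3D, and at 12.83 and 11.31 in perfused 3D. The perfused replicates differed by more than the group means did, and without 2D replicate 1 the differences of 0.94 and 0.64 became -0.05 and -0.35. C6 lay at 6.60, 9.79 and 8.04 in 2D, at 9.35, 10.66 and 11.30 in static 3D, and at 10.45 and 9.59 in perfused 3D. It was not detected on 2D replicate 1. It was higher by 2.29 (SE 0.79) and 1.87 (SE 0.89), and by 1.51 and 1.10 on removing 2D replicate 1, with overlap between the second 2D array and static 3D replicate 1 and perfused replicate 2.

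The 3 chains of C8 come from 3 genes, of which C8A and C8B are neighbours on chromosome 1. C8A lay at 7.79, 11.04 and 9.92 in 2D, at 11.12, 11.38 and 11.56 in static 3D, and at 11.56 and 11.04 in perfused 3D. The static arrays were above all 2D arrays, and perfused replicate 2 was level with the second 2D array. C8A differed by 1.77 (SE 0.69) and 1.72 (SE 0.78), C8B by 1.17 (SE 0.68) and 1.15 (SE 0.76), and C8G by 1.10 (SE 0.92) and 1.58 (SE 1.02). C8G lay at 9.41 on 2D replicate 1 and from 12.28 to 13.58 on the other 7 arrays, and without that array its differences were -0.14 (SE 0.36) and 0.33 (SE 0.39). On the same removal C8A differed by 0.87 and 0.82 and C8B by 0.33 and 0.31. C9 lay between 5.46 and 5.81 on all arrays, not well above background, and was not tested.

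The complement inhibitors held a contrast between the chains of 1 protein. C4b-binding protein, which carries much of the protein S in plasma and helps factor I to cut C4b, is built of alpha chains (C4BPA) and a beta chain (C4BPB) whose genes are neighbours on chromosome 1. C4BPA lay at 9.06, 11.02 and 10.44 in 2D, at 11.13, 11.82 and 12.10 in static 3D, and at 11.56 and 10.95 in perfused 3D. C4BPB lay at 11.39, 10.97 and 10.29 in 2D, at 11.98, 10.92 and 10.91 in static 3D, and at 11.06 and 10.69 in perfused 3D. C4BPA was lowest on 2D replicate 1, as most members were. C4BPB had its highest levels on the arrays that stood apart, static 3D replicate 1 and 2D replicate 1, which were also the arrays with high dividing cell markers.

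C4BPA was higher by 1.51 (SE 0.49) in static 3D and 1.08 (SE 0.55) in perfused 3D, whereas C4BPB differed by 0.38 (SE 0.38) and -0.01 (SE 0.42). With 2D replicate 1 removed, C4BPA was higher by 0.95 and 0.53 and C4BPB by 0.64 and 0.24. The difference between the chains was not tested. The second probe of C4BPB gave 0.17 and -0.15 and had its highest level, 10.82, on 2D replicate 1. CFI, factor I, was higher by 1.03 (SE 0.47) and 0.75 (SE 0.53), at 9.47 on 2D replicate 1 and from 10.64 to 11.82 elsewhere. Removing that array left 0.48 and 0.20.

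**Figure D5:**
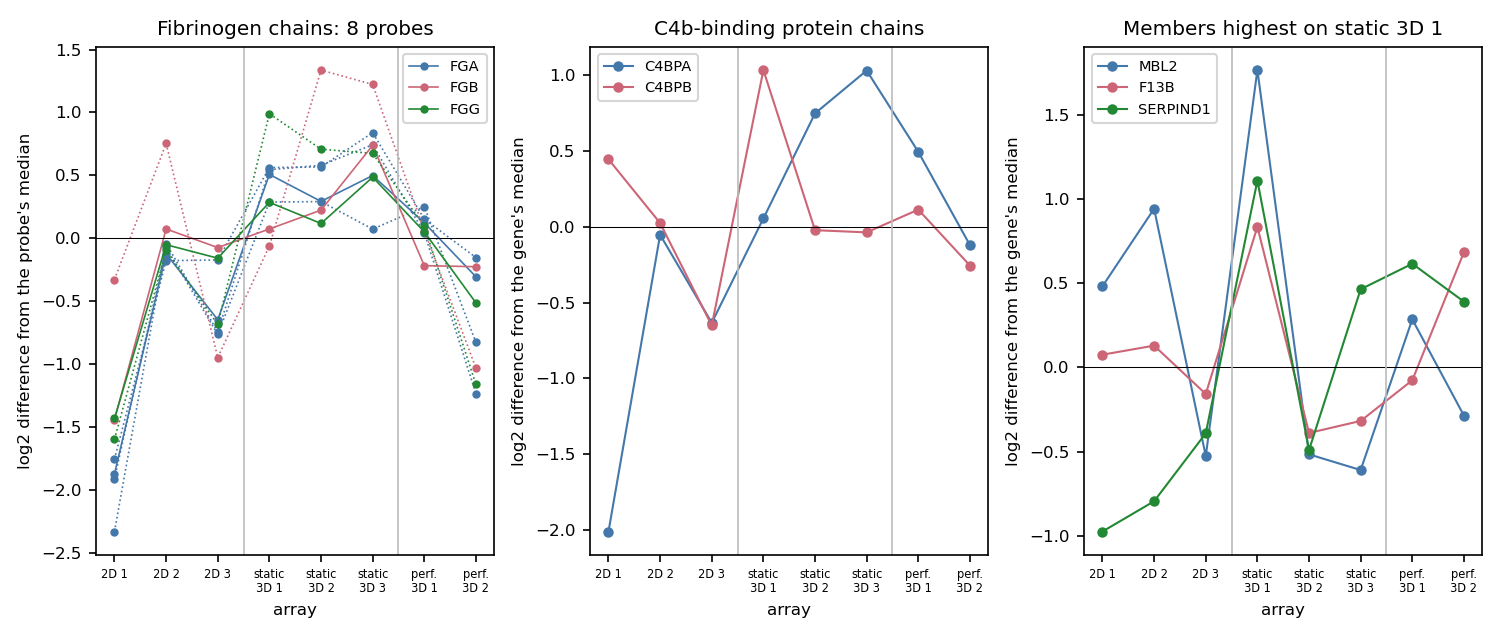
Log2 difference from the probe's or gene's own median on each of the 8 arrays: the 8 fibrinogen probes detected on every array (left, solid for the probe that stands for the gene, dotted for others), both chains of C4b-binding protein (middle), and MBL2, F13B and SERPIND1 (right). All 8 fibrinogen probes have lower means in perfused (perf.) than in static 3D, C4BPA and C4BPB part on 2D replicate 1, and the 3 genes on the right peak on static 3D replicate 1.

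The windows of the C4BP genes are shown to set the neighbouring genes side by side. C4BPA is at chr1:207103983-207104282 and C4BPB, by the first of its 3 windows, at chr1:207088610-207088909, both on the plus strand of GRCh38.p14 in RefSeq. Capitals mark the HNF1 half-site and the FOXA motif in C4BPA and the HNF4 core in C4BPB, on either strand.
C4BPA: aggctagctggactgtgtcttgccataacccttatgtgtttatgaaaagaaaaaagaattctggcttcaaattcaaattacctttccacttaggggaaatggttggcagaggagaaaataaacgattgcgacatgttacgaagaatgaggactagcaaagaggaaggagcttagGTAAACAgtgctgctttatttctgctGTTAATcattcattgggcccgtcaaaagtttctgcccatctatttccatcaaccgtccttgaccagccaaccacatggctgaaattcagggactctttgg
C4BPB: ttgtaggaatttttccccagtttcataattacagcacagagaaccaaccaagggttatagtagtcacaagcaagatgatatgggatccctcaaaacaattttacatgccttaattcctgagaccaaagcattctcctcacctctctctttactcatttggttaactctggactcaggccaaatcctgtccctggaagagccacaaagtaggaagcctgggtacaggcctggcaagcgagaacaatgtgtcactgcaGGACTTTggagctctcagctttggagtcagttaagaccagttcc
The C4BPA window holds the FOXA motif at -76 and the HNF1 half-site at -50. The first C4BPB window holds an HNF4 core at 7, after the start, and the other 2 hold a C/EBP core and a FOXA motif. No HNF1 half-site as spelled here was found in a C4BPB window.

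Flow was compared with no flow inside the scaffold. The members did not share a direction: 12 of 36 lay higher and 24 lower in perfused than in static 3D, where 50.2% of all genes lay higher. The median was -0.17, against 0.00 over all genes, and 0 members were above 1, as 1.55% of all genes were. In limma's fit 0 members were called (smallest adjusted p 1.00) and 0 had an unadjusted p under 0.05, while 0.00907% of all genes were called. No member had both perfused arrays above all static arrays, as 8.95% of all genes had, and 4 had them all below, FGA, FGB, FGG and SERPINF2, against 8.31% of all genes lower without overlap. By class the medians were -0.10 for the clotting genes, -0.07 for the inhibitors and -0.21 for complement, where 13 of 16 lay lower. The direction of the median was not fixed. It was 0.01 after median scaling, a setting under which the median of all genes was 0.12, and 0.12 with the chip as a block. Without static 3D replicate 3 it was 0.05, and without perfused replicate 2 it was 0.03.

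The arrays lay on 2 chips, with static 3D replicate 1 and both perfused arrays on one. No chip held both 2D and perfused arrays, so chip and perfusion can be separated only through that static array. With chip as a block, the member medians were 1.25 for static 3D and 1.41 for perfused 3D over 2D, with 34 and 31 of 36 higher. Between the scaffolds, the block sets the perfused mean against static 3D replicate 1 alone, so a gene that is high or low on that array has a large value by construction. There, 20 of 36 members were higher and 4 were above 1, C8G at 1.20 (SE 1.42), CPB2 at 1.14 (SE 0.83), F12 at 1.04 (SE 0.99) and C1R at 1.03 (SE 0.76). The lowest were SERPINF2 at -1.79 (SE 1.15), MBL2 at -1.77 (SE 0.58), F2 at -1.12 (SE 1.04) and C4BPB at -1.10 (SE 0.45).

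Related genes were read for the same systems. Of 27 other coagulation and fibrinolysis genes, 21 were tested, and 15 were higher in static 3D and 15 in perfused 3D, with medians of 0.59 and 0.43 and 0 called in limma's fit. At an unadjusted p under 0.05 there were 4 and 1. In static 3D the 3 smallest p-values were those of FGL1, a fibrinogen-like hepatokine, at 1.67 (SE 0.54), SERPINA5, the protein C inhibitor, at 1.61 (SE 0.55), and SERPINA10, the inhibitor of factor Xa with protein Z, at 1.62 (SE 0.66). In perfused 3D HRG, the histidine-rich glycoprotein that binds heparin and plasminogen, was higher by 1.83 (SE 0.83). Without 2D replicate 1 these differences were 1.06 for FGL1, 0.95 for SERPINA5, 0.94 for SERPINA10 and 0.96 for HRG. Between the scaffolds A2M, the broad protease inhibitor alpha-2-macroglobulin, lay at 9.96 and 8.93 in perfused 3D and above both on each static array, and differed by -1.20 (SE 0.97).

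Of 31 other complement genes, 14 were tested. In static 3D 8 were higher, with a median of 0.12, and in perfused 3D 13 were, with a median of 0.68. The limma fit called 0, and 0 and 1 had an unadjusted p under 0.05. Part of this list is made by macrophages, C1QA, C1QB and C1QC among them, and those 3 genes are also in the macrophage marker list. The medians of that list were -0.11 in static 3D and 0.82 in perfused 3D. The part of macrophage RNA in this was not tested. CFHR2, a factor H-related protein, was higher by 1.504 (SE 0.76) and 2.30 (SE 0.85), and by 0.67 and 1.46 without 2D replicate 1. SERPING1, the C1 inhibitor that blocks C1R, C1S and the contact proteases, lay at 9.48, 12.50 and 11.64 in 2D, at 12.17, 13.13 and 12.78 in static 3D, and at 12.89 and 11.50 in perfused 3D. It overlapped between groups and was higher by 1.49 (SE 0.72) in static 3D, or by 0.63 without 2D replicate 1.

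The machinery that finishes and exports the factors gave medians near that of all genes. All 8 genes of the vitamin K cycle and secretion list were tested, 5 were higher in static 3D and 4 in perfused 3D, with medians of 0.10 and 0.17 and 0 called, also at an unadjusted p under 0.05. VKORC1, the warfarin target that recycles vitamin K for carboxylation of F2, F7, F9, F10, PROC and PROS1, was higher by 0.46 (SE 0.21) in static 3D and 0.46 (SE 0.23) in perfused 3D. Its scaffold arrays, 14.02 to 14.25, were above the 2D arrays, 13.33 to 14.01. Without 2D replicate 1 the VKORC1 differences were 0.28 and 0.28. LMAN1, the cargo receptor for factors V and VIII, was higher by 0.59 (SE 0.31) in perfused 3D, and by 0.74 without that array.

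Of 14 transcription factors and IL-6 signalling genes, 11 were tested, 8 were higher in static 3D and 9 in perfused 3D, with medians of 0.16 and 0.37 and 0 called. At an unadjusted p under 0.05 there were 3 and 1. CEBPD, an acute-phase C/EBP factor, lay at 10.53, 11.12 and 11.24 in 2D, at 11.70, 11.71 and 12.21 in static 3D, and at 11.82 and 11.61 in perfused 3D. All its scaffold arrays were above 2D, with differences of 0.91 (SE 0.26) and 0.75 (SE 0.29), or 0.69 and 0.53 without 2D replicate 1. FOXA3 was higher in static 3D by 1.43 (SE 0.44) and FOXA2 by 0.58 (SE 0.22), both without overlap, and FOXA3 had its highest level, 11.36, on static 3D replicate 1.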

How the data were processed

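RNA of cultured liver cells was amplified, labelled with biotin and stained with Cy3-streptavidin, per the labels' protocols. It was hybridised to 8 Illumina HumanHT-12 v4 arrays on 2 chips. The deposited intensity file holds, per its headers, an average bead intensity and a detection p-value per array for 47323 probes, without normalisation between arrays. The authors also deposited processed values that lie on a log2 scale by their range. No source used here states their scanner settings or normalisation, and these values served as an alternative. Here, intensities were background-corrected in limma 3.58.1 (R 4.3.3) by normexp, with control parameters inferred from the detection p-values and an offset of 16, then quantile normalised and taken to log2. Probes with a detection p under 0.05 on at least 2 arrays were kept (18556). Symbols came from the platform annotation, updated through RefSeq, and the brightest probe stood for each gene, which left 11031 genes.

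All 8 arrays entered 1 limma model with a mean per group (5 residual and 8.45 total degrees of freedom, intensity trend). The tests were two-sided, with Benjamini-Hochberg adjustment over all genes at 0.05, intervals of 95%, and no test of a list. The scripts were tested on simulated data. The text names every member, and from 4 lists of related genes at most the 3 with the smallest p per comparison. Members and lists were chosen with earlier results of these data known. A gene undetected on every array of a group has only a bound.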

Additional observations from a re-analysis of the deposited data

How the results depend on the processing

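The higher member medians in both scaffold groups kept their sign under all 11 kinds of alternative. Leaving out each array in turn moved the static 3D median between 0.47 and 1.55 and the perfused one between 0.31 and 1.33. The lowest values were without 2D replicate 1 and the highest without 2D replicate 2. The perfused minus static median turned sign with median scaling (0.0066) and with chip as a block (0.12), and with single arrays removed its range was -0.45 to 0.054. No paired analysis was possible because the labels give no replicate numbers.

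Genes called by limma, none of them members, changed in number. With probes detected on all arrays, 0 were called in either perfused comparison, and with no filter 2 in each (CYP3A4 and CYP2A6), against 1 (CYP3A4). Chip as a block gave 0 and 0. When both arrays that stood apart were removed there were 1 in static 3D (HILPDA, 4.04) and 2 in perfused 3D.

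Of 3471 values for 65 named genes, 27 turned sign beyond the gene's spread, 92 moved beyond it and 3352 stayed within it. In perfused minus 2D, ALB turned to 0.19 with the authors' values and MASP1 to 0.20 with probes detected on all arrays. VKORC1 turned to -0.31 between the scaffolds with all probes averaged. Without both arrays, static minus 2D turned for PROC (-0.17), CEBPA (-0.64) and FURIN (-0.010), and perfused minus 2D for FGB (-0.22), PROC (-0.012), C5 (-0.35) and A2M (-0.57). With chip as a block, perfused minus 2D turned for F13B (-0.90), FOXA3 (-0.42) and ONECUT1 (-1.11), and perfused minus static for F13B (-0.53), SERPIND1 (-0.61), CPB2 (1.14), C1R (1.03) and C6 (0.67). With each array left out, static minus 2D ran from -0.16 to 1.09 for PROC, from -0.047 to 1.58 for C5, from -0.14 to 1.85 for C8G and from -0.58 to 0.38 for CEBPA. Perfused minus 2D ran from -0.22 to 0.54 for FGB, from -0.012 to 1.24 for PROC, from -0.35 to 1.40 for C5 and from -0.57 to 1.29 for A2M, and perfused minus static from -0.37 to 0.16 for FOXA2. The causes were not tested.

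Genes near background (F7, F13B, CPB2, MBL2, MASP1) have levels that the detection limit compresses, as do F2, C6 and SERPINF2 on 2D replicate 1. The signs of F13B, not above background on 6 of 8 arrays, carry no order. The 8 arrays limit the precision, with intervals such as 0.42 to 4.56 for KNG1 in static 3D.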
